A study of Homo sapiens with 6 samples.

Results

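The septins are a family of GTP-binding cytoskeletal proteins, and 10 of their genes, SEPTIN2 to SEPTIN11, were followed here in DMS114, a cell line established from small cell lung cancer. They were found by gene symbol in the deposited table of 36458 symbols, which holds 13 human septin genes in all. The members were chosen by family name with their counts of reads scaled to library size (CPM) in the β-alanine libraries and the controls already known, so their differences are given as a description, with no test. Of the 2 groups, one received 2.5 mM β-alanine for 48 h and the other an equal volume of vehicle, with 3 libraries each of polyadenylated RNA. The labels give no other agent and no genetic change in either group. The labels do not say that libraries came from separate cultures, so p-values given for other genes measure only the spread between these libraries, which may be technical.

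Septin proteins join end to end into rods and then into filaments that bind actin, microtubules and curved membranes. They are sorted by sequence into the SEPT2, SEPT3, SEPT6 and SEPT7 groups, and a rod takes subunits from different groups, with SEPTIN7 as the single member of its own group. Septins are known for the ring that forms between dividing cells, for barriers at the base of cilia and dendritic spines, and, in neurons, for the control of branching and vesicle release.

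Total counts ran from 14433801 to 32909568 per library. β-alanine library 1 stood nearer the controls than the other two treated libraries did: its chi-square per gene was 4.57 to 5.47 against the controls, compared with 12.2 to 16.5 for β-alanine libraries 2 and 3. Within the treated group it differed from libraries 2 and 3 by 4.22 and 4.93, and libraries 2 and 3 differed from each other by 2.25. The chi-square was taken on raw counts and rises with depth, and β-alanine library 1 was the shallowest, at 14433801 counts. The part of depth in these values was not tested. Of 10 neuroendocrine markers, 6 had enough counts to be tested. After β-alanine 4 of these rose and 1 fell, beside 14.1% of all tested genes called higher and 13.8% lower. The summed level of all 10 was 212 to 241 CPM in β-alanine libraries and 169.5 to 176 CPM in controls. INSM1, DDC and GRP from the same list stayed below 1 CPM in all 6 libraries. Of 4 epithelial markers, 2 could be tested, of which 1 rose and none fell. The summed level of all 4 was 11.8 to 14.7 CPM in β-alanine libraries and 8.91 to 9.89 CPM in controls. The 5 markers usually read as fibroblast genes include DCN and LUM. They summed to 242 to 259 CPM in β-alanine libraries and 276 to 289 CPM in controls. Of the 4 tested, 1 rose and 2 fell. The 3 leukocyte and 3 endothelial markers measured summed to at most 0.509 CPM per library in the β-alanine group and 0.487 CPM in the controls. These marker shifts come from the same libraries as the septin values below, and whether they bear on those values was not tested.

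RefSeq on GRCh38.p14 gave a promoter for 8 of the 10 members. The 250 bases before the first listed start are shown, 5′ to 3′, for 3 of them, because SEPTIN9 and SEPTIN8 had the largest differences among the well-measured members and SEPTIN7 was the only member higher after β-alanine. Capitals mark the GC box GGGCGG, read on either strand.
SEPTIN9: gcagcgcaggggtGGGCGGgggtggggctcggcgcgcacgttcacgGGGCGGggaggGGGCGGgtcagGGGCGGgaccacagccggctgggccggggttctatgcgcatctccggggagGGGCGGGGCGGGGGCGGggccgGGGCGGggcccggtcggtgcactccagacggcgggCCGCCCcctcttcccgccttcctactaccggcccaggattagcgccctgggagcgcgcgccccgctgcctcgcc
SEPTIN8: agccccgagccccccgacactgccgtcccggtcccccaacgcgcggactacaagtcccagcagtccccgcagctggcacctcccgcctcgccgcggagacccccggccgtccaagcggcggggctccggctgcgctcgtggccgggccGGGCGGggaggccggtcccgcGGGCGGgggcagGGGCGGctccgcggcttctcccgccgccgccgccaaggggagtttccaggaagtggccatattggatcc
SEPTIN7: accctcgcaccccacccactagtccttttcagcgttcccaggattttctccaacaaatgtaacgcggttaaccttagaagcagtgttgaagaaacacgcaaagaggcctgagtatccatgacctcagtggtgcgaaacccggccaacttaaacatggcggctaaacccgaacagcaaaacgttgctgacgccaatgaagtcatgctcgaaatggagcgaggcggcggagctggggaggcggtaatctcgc
The windows lie at chr17:77281249-77281498 on the plus strand, chr5:132777240-132777489 on the minus strand and chr7:35800736-35800985 on the plus strand. SEPTIN9 held 9 GC boxes and SEPTIN8 held 3, some of them overlapping, while SEPTIN7 held 0. GC content of the windows was 80.4%, 77.6% and 53.6%, against a median of 58% over all promoters. The GC box occurred in 7 of the 8 member promoters and in 42.3% of 27305 promoters of the same length, which were not matched for GC content. SEPTIN2, SEPTIN6 and SEPTIN11 held 3 each, SEPTIN10 held 5 and SEPTIN4 held 2. A link between the box and the RNA differences was not tested. Searched on both strands, the AP-1 element TGANTCA (6.6% of all promoters), the cyclic AMP response element TGACGTCA (1.77%), the NR4A monomer element AAAGGTCA (1.05%) and the EGR element GCGTGGGCG (0.71%) had no match in these 8 windows. Of the other motifs searched, the E-box CACGTG (6.49% of all promoters) had 1 match in SEPTIN2. The CCAAT box (33%) had 1 match each in SEPTIN2, SEPTIN7 and SEPTIN8. Whether these matches bear on the RNA differences was not tested. SEPTIN9 has 10 listed starts, SEPTIN4 has 4, SEPTIN2 and SEPTIN7 have 3 each and SEPTIN8 has 2, so other promoters of these genes were not searched. The SEPTIN8 window lies inside the gene as listed, from 132750819 to 132780083.

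After β-alanine the members differed in how far they stood from the controls. SEPTIN9, SEPTIN8, SEPTIN3, SEPTIN6 and SEPTIN11 were lower in all 3 β-alanine libraries than in any control, at 77.1%, 79.8%, 86.8%, 87.5% and 90% of the control mean. SEPTIN2 was at 99.4% and SEPTIN10 at 96.6%, and SEPTIN7 was at 103%. With the edgeR quasi-likelihood fit over 17331 genes, 5 of the 10 members lay past an adjusted p of 0.05 on the lower side and 0 on the higher side, where 13.8% of all tested genes were called lower, 14.1% higher and 27.9% in either direction. At an unadjusted p under 0.05 in edgeR 6 members were lower and 0 higher, beside 19% of all tested genes lower and 19.4% higher. At an adjusted p under 0.05, DESeq2 called 4 members lower and limma-voom 5, and each called 0 higher. The groups did not overlap for 6 members, 5 of them lower and 1 higher, beside 39.1% of all tested genes, 19.2% lower and 19.9% higher. Since the members were chosen with this contrast known, nothing is read from these counts. The median log2 fold change was -0.20 over the members and -0.00321 over all tested genes.

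**Figure D1:**
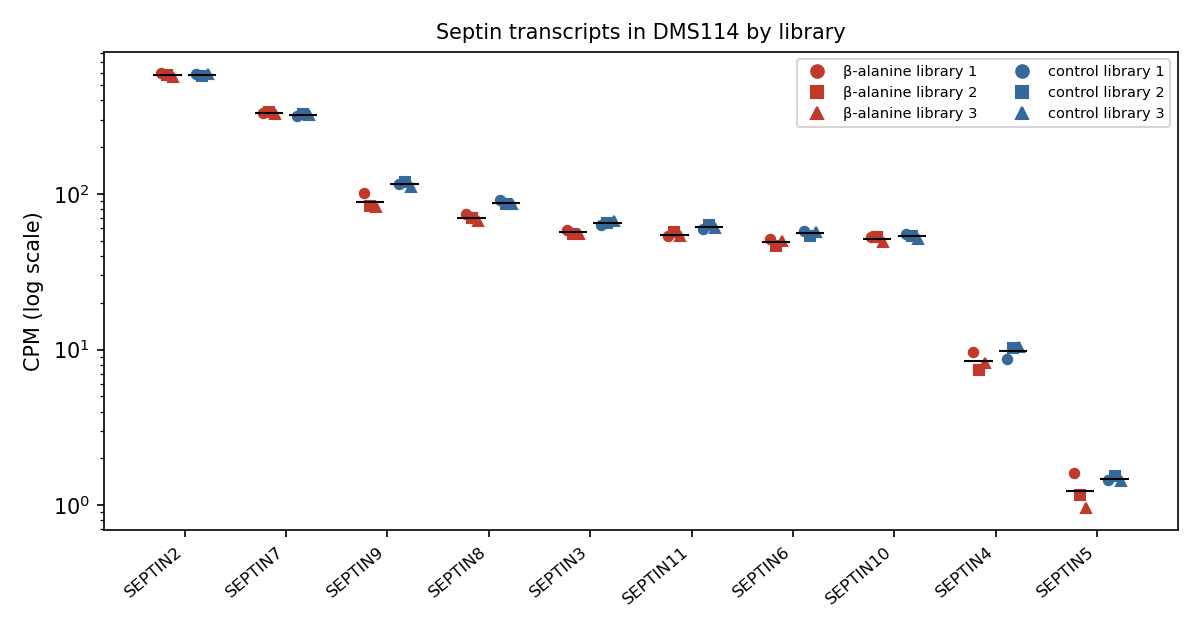
CPM of each septin gene (vertical axis, log scale) in the 3 β-alanine libraries (red) and the 3 controls (blue), ordered by control level, with horizontal bars for group means. SEPTIN2 and SEPTIN7 stand at 315 CPM or more in each library, and the 5 members with red points wholly below blue ones lie between 46.4 and 119 CPM.

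The SEPT3 group held the largest difference. SEPTIN9, an actin- and microtubule-binding septin, had 101, 83.0 and 82.3 CPM in β-alanine libraries 1, 2 and 3, against 116, 119 and 109.9 CPM in control libraries 1, 2 and 3. β-alanine library 1 was the highest of the treated libraries and still lay below the lowest control. The log2 fold change was -0.39 ± 0.07 (SE), or -0.48 when β-alanine library 1 was left out. The gene lies on chromosome 17 from 77281499 to 77500596 (GRCh38.p14, RefSeq) and overlaps several noncoding genes on the opposite strand, SEPTIN9-DT among them, so without strand its reads cannot be told from theirs.

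SEPTIN3, a septin first known from neurons, had 58.9, 55.5 and 55.0 CPM in β-alanine libraries 1, 2 and 3, against 63.3, 65.1 and 66.8 CPM in controls 1, 2 and 3. The 2 sets did not overlap, and β-alanine library 1 stood nearest the controls. Its log2 fold change was -0.21 ± 0.05 (SE). SEPTIN3 lies on chromosome 22 from 41969443 to 41998221 and overlaps an antisense gene. The third septin of this group, SEPTIN12, which is known from sperm, is outside the 10 members and averaged 0.86 ± 0.185 CPM after β-alanine and 0.954 ± 0.19 CPM in controls (n = 3 each, SD).

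The SEPT6 group, whose proteins fill the position next to SEPTIN7 in a rod, holds 4 of the 10 members. Of these, 3 were lower with no overlap between groups, beside 19.2% of all tested genes, and nothing is read from this count. SEPTIN14, a gene of this group outside the 10, overlapped between groups. SEPTIN8, which in neurons binds the vesicle protein VAMP2, had 73.7, 69.6 and 66.6 CPM in β-alanine libraries 1, 2 and 3, against 91.0, 85.9 and 85.9 CPM in controls 1, 2 and 3. The log2 fold change was -0.33 ± 0.05 (SE), and each treated library lay below every control by more than the range of the controls. SEPTIN8 lies on chromosome 5 from 132750819 to 132780083 and overlaps CCNI2 on the other strand, which had at most 0.27 CPM in any library.

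SEPTIN6 had 51.7, 46.4 and 49.6 CPM in β-alanine libraries 1, 2 and 3, against 58.1, 53.6 and 57.1 CPM in controls 1, 2 and 3. The highest treated library and the lowest control were close, and the log2 fold change was -0.20 ± 0.06 (SE). SEPTIN11, which is found at dendritic spines and inhibitory synapses, had 53.6, 56.7 and 53.9 CPM in β-alanine libraries 1, 2 and 3, against 59.1, 63.0 and 60.3 CPM in controls. Its log2 fold change of -0.15 ± 0.05 (SE) was the smallest of the 5, and here β-alanine library 2, not library 1, stood nearest the controls. SEPTIN6 lies on chromosome X from 119615724 to 119693168 and SEPTIN11 on chromosome 4 from 76949752 to 77040154.

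SEPTIN10 differed from the other SEPT6-group genes among the 10 members in showing overlap. It had 52.7, 52.6 and 49.1 CPM in β-alanine libraries 1, 2 and 3, against 54.9, 53.4 and 51.4 CPM in controls 1, 2 and 3. The log2 fold change was -0.05 ± 0.05 (SE). The difference between SEPTIN10 and the other SEPT6-group members was not tested. SEPTIN14, its close relative outside the 10 members, averaged 8.63 ± 0.778 CPM after β-alanine and 9.46 ± 0.676 CPM in controls (n = 3 each, SD). The 2 genes and several SEPTIN14 pseudogenes are alike in sequence, so the split of their reads is uncertain.

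**Figure D2:**
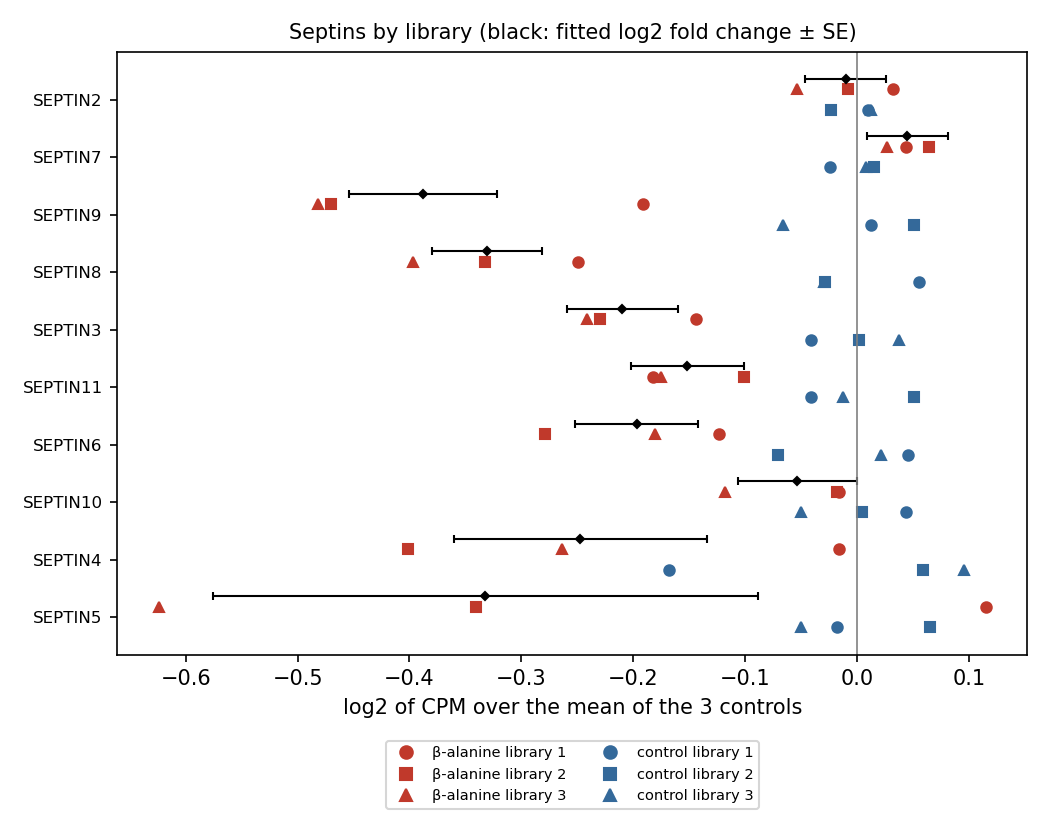
Each library's CPM over the control mean on the log2 scale (horizontal axis) for every septin, with β-alanine libraries in red above control libraries in blue, and the fitted log2 fold change with its SE in black. SEPTIN9 shows β-alanine library 1 at -0.19 and libraries 2 and 3 at -0.47 and -0.48, whereas SEPTIN2 and SEPTIN7 stay within 0.07 of 0 in each library.

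SEPTIN7, the one septin without a substitute in its group, was slightly higher after β-alanine. It had 331, 336 and 327 CPM in β-alanine libraries 1, 2 and 3, against 315, 324 and 323 CPM in controls 1, 2 and 3. The groups were just apart, the lowest treated library lying little above the highest control, and the log2 fold change was 0.05 ± 0.04 (SE). SEPTIN7 lies on chromosome 7 from 35800986 to 35915763. Its pseudogene SEPTIN7P2 averaged 17.8 ± 0.871 CPM after β-alanine and 19.4 ± 0.589 CPM in controls (n = 3 each, SD), which was 5.37% and 6.06% of the SEPTIN7 level, so reads placed in either are uncertain. SEPTIN7-AS1, a noncoding gene named for the same locus, had 4.18, 4.05 and 3.63 CPM in β-alanine libraries, against 5.30, 5.78 and 4.64 CPM in controls. Its log2 fold change was -0.43 ± 0.14 (SE), with all 3 treated libraries below the controls.

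In the SEPT2 group, one member carried nearly all of the RNA. SEPTIN2, a core subunit of the cytokinetic and ciliary septin structures, had 595, 579 and 561 CPM in β-alanine libraries 1, 2 and 3, against 586, 573 and 587 CPM in controls 1, 2 and 3. The groups overlapped, and the log2 fold change was -0.01 ± 0.04 (SE), turning to 0.01 when library totals replaced the TMM scaling. SEPTIN2 lies on chromosome 2 from 241315355 to 241354027 and overlaps HDLBP on the other strand, which averaged 775 ± 31.2 CPM after β-alanine and 835 ± 10.4 CPM in controls (n = 3 each, SD). HDLBP was lower in 3 of 3 libraries (log2 fold change -0.11 ± 0.04 (SE), adjusted p = 0.0328 in edgeR). Without strand, reads where the 2 genes overlap cannot be told apart, so the SEPTIN2 counts are uncertain.

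SEPTIN4, whose alternative product ARTS promotes apoptosis, had 9.68, 7.40 and 8.15 CPM in β-alanine libraries 1, 2 and 3, against 8.70, 10.2 and 10.5 CPM in controls 1, 2 and 3. Control library 1 lay among the treated values and β-alanine library 1 among the controls. The log2 fold change was -0.25 ± 0.11 (SE). SEPTIN4 overlaps SEPTIN4-AS1, which averaged 1.36 ± 0.317 CPM after β-alanine and 1.38 ± 0.224 CPM in controls (n = 3 each, SD).

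SEPTIN5, the septin best known from synaptic vesicles, where it binds syntaxin 1, was near the lower end of detection. It had 23, 32 and 32 counts in β-alanine libraries 1, 2 and 3 and 27, 34 and 28 counts in controls 1, 2 and 3, or 1.601, 1.17 and 0.959 CPM against 1.46, 1.55 and 1.43 CPM. β-alanine library 1 was the highest of the 6 and libraries 2 and 3 the lowest, and the SE of its log2 fold change of -0.33 ± 0.24 was the largest among the members. Without β-alanine library 3 that value was -0.15. SEPTIN5 lies on chromosome 22 from 19714503 to 19723319 and overlaps GP1BB and a read-through gene on the same strand, so reads there are uncertain. SEPTIN1, the lymphoid septin of this group and not among the 10 members, averaged 1.20 ± 0.175 CPM after β-alanine and 1.54 ± 0.299 CPM in controls (n = 3 each, SD).

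Levels between genes were compared as CPM per kb of the longest annotated coding transcript. In controls the order was SEPTIN2 (157 CPM per kb), SEPTIN7 (72.9), SEPTIN9 (25.8), SEPTIN8 (19.9), SEPTIN10 (17.2), SEPTIN3 (13.99), SEPTIN6 (12.0), SEPTIN11 (10.9), SEPTIN4 (5.13) and SEPTIN5 (0.66). Neighbours in this order were apart in every control library. In the β-alanine libraries the ranges of SEPTIN10 (15.9 to 17.05 CPM per kb) and SEPTIN8 (15.1 to 16.8) overlapped, with SEPTIN10 above SEPTIN8 within each library, whereas SEPTIN8 was above SEPTIN10 within each control. Those of SEPTIN6 (9.876 to 11.0046) and SEPTIN11 (9.58 to 10.1) overlapped as well. The order of the middle members depended on the length used: with the mean length over coding transcripts, SEPTIN10 (35.9 CPM per kb), SEPTIN8 (35.5) and SEPTIN11 (33.9) stood together in controls.

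Summed over all 13 septin genes, the level was 335, 324 and 316 CPM per kb in β-alanine libraries 1, 2 and 3, against 341, 339 and 340.1 CPM per kb in controls 1, 2 and 3. SEPTIN2 and SEPTIN7 together made up 71.2 ± 0.781% of it after β-alanine and 67.7 ± 0.45% in controls (n = 3 each, SD). The other 11 genes summed to 99.4, 91.1 and 90.02 CPM per kb in β-alanine libraries 1, 2 and 3, against 110.5, 111 and 108 CPM per kb in controls. The lower total thus lay with the less abundant septins. The ratio of SEPTIN2 to SEPTIN7 was 2.08 ± 0.0551 after β-alanine and 2.16 ± 0.0547 in controls on the same scale, and its values overlapped between groups.

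By homology group, the SEPT3 share of the summed level was 10.04 ± 0.592% after β-alanine and 11.9 ± 0.301% in controls, and the SEPT6 share was 16.96 ± 0.0227% and 18.4 ± 0.391% (n = 3 each, SD). The SEPT7 share was 23.2 ± 0.652% after β-alanine and 21.5 ± 0.355% in controls, and the SEPT2 share was 49.8 ± 0.148% and 48.2 ± 0.469%. For each of the 4 shares the 3 β-alanine libraries lay on one side of the 3 controls. Shares sum to 100%, so they do not move independently of each other.

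**Figure D3:**
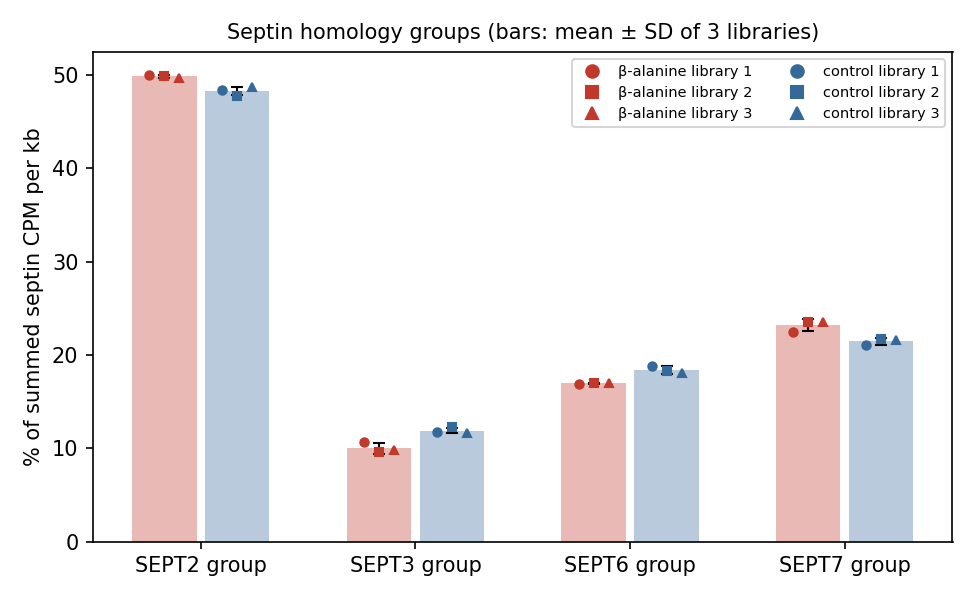
Share of the summed septin level (percent of CPM per kb, vertical axis) held by each homology group in β-alanine libraries (red, left of each pair) and controls (blue), with bars for means, SD error bars and points for the 3 libraries. The SEPT3 and SEPT6 shares are lower after β-alanine and the SEPT2 and SEPT7 shares higher, each without overlap of points.

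Lists of genes, 4 in all, that work with septins were examined with the test across all genes, and 16 of 47 tested genes passed it, 8 higher and 8 lower, or 34% against the 27.9% of all tested genes. Of 9 tested genes of small GTPases, their regulators and effectors linked to septins, 1 rose and 3 fell, with a median log2 fold change of -0.04. CDC42EP4 and CDC42EP5 encode CDC42 effectors that bind septins directly. CDC42EP4 fell to 35.7, 34.7 and 35.2 CPM in β-alanine libraries 1, 2 and 3, against 42.2, 41.8 and 39.0 CPM in controls, a log2 fold change of -0.22 ± 0.06 (SE) and lower in 3 of 3 libraries (edgeR quasi-likelihood test, Benjamini-Hochberg adjusted p = 0.00599). CDC42EP5 fell to 3.69 ± 0.779 CPM, against 4.99 ± 0.521 CPM in controls (n = 3 each, SD; log2 fold change -0.49 ± 0.16, adjusted p = 0.0259 in edgeR), though β-alanine library 1 overlapped control library 3. RHOA, the small GTPase that drives the contractile ring, fell to 464 ± 25.4 CPM, against 502 ± 7.14 CPM in controls (adjusted p = 0.0352 in edgeR, lower in 3 of 3). ARHGEF18, an exchange factor for RHOA that binds SEPTIN9, rose to 23.2 ± 0.421 CPM, against 20.2 ± 1.06 CPM in controls (adjusted p = 0.0392 in edgeR, higher in 3 of 3). CDC42 itself had a log2 fold change of -0.04 ± 0.04 (SE) and did not pass, and CDC42EP2 was too low to be tested.

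Of 17 genes of the cytokinesis scaffold, 2 rose and 4 fell, with a median log2 fold change of -0.07. CIT, the citron kinase of the midbody, fell to 60.5, 52.0 and 50.9 CPM in β-alanine libraries 1, 2 and 3, against 70.5, 72.7 and 71.3 CPM in controls 1, 2 and 3. All 3 treated libraries were below the controls, with a log2 fold change of -0.41 ± 0.06 (SE, adjusted p = 1.96e-05 in edgeR). The mitotic kinases PLK1 and AURKB also fell, by 0.32 ± 0.06 and 0.28 ± 0.06 on the log2 scale, and the nonmuscle myosin heavy chain MYH10 by 0.13 ± 0.04. MYL12A, a myosin regulatory light chain, rose to 268, 281 and 253 CPM in β-alanine libraries, against 205, 192 and 195 CPM in controls (log2 fold change 0.44 ± 0.04, higher in 3 of 3, adjusted p = 3.02e-07 in edgeR). MYL12A has a near copy in MYL12B, which did not pass at 0.07 ± 0.04, so the split of their reads is uncertain. The formin DIAPH1 rose by 0.12 ± 0.04. ANLN, the anillin scaffold that recruits septins to the ring, had 198, 168 and 164 CPM in β-alanine libraries 1, 2 and 3, against 190.3, 184 and 188 CPM in controls, and did not pass; without β-alanine library 1 its log2 fold change was -0.18 and passed, as did those of RACGAP1 and KIF23, at -0.13 each.

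Of 10 enzymes and partners known to act on a septin, 2 rose and 1 fell, with a median log2 fold change of -0.03. The share called was 30%, near the 27.9% of all tested genes (14.1% higher and 13.8% lower). CDK5, a neuronal kinase that phosphorylates SEPTIN5, rose to 36.8, 40.4 and 37.8 CPM in β-alanine libraries, against 32.7, 33.5 and 34.7 CPM in controls (log2 fold change 0.19 ± 0.06, higher in 3 of 3, adjusted p = 0.02 in edgeR). CD2AP, an actin adaptor, rose to 42.3 ± 1.79 CPM, against 36.5 ± 1.6 CPM in controls (n = 3 each, SD; adjusted p = 0.00753 in edgeR, higher in 3 of 3). MAP4, whose binding to microtubules SEPTIN2 hinders, had a log2 fold change of 0.00167 ± 0.04 (SE) and did not pass.

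Of 11 exocyst and syntaxin genes, 3 rose and 0 fell by the edgeR test, with a median log2 fold change of 0.11, so that 27.3% were called beside 27.9% of all tested genes. At an unadjusted p under 0.05 in edgeR 5 were higher and 0 lower, beside 19.4% and 19% of all tested genes. At an adjusted p under 0.05, DESeq2 and limma-voom each called 3 higher and 0 lower. EXOC6B, a subunit of the complex that tethers vesicles to the plasma membrane, rose to 74.9, 80.5 and 74.0 CPM in β-alanine libraries, against 62.0, 65.5 and 67.4 CPM in controls. The sets did not overlap, with a log2 fold change of 0.24 ± 0.05 (SE, adjusted p = 0.00131 in edgeR). Its paralog EXOC6 rose by 0.25 ± 0.07 (adjusted p = 0.00614) and EXOC8 by 0.22 ± 0.06 (adjusted p = 0.0118), each higher in 3 of 3 libraries in the same edgeR fit. STX1A, the syntaxin that SEPTIN5 binds, had 5.29, 5.58 and 6.77 CPM in β-alanine libraries and 5.08, 3.41 and 5.86 CPM in controls, and did not pass; without control library 3 its log2 fold change was 0.51 and passed.

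Of the 16 calls, those of CIT, PLK1, AURKB, MYL12A, CDC42EP4 and EXOC6B held with each library left out in turn. The other 10 were lost in edgeR without at least one library, among them EXOC6 without β-alanine library 2, CD2AP without β-alanine library 3 or control library 2, CDK5 without β-alanine library 2, control library 1 or control library 2, and EXOC8 without control library 1 or either of β-alanine libraries 2 and 3. The calls of RHOA, ARHGEF18 and MYH10 were lost without any library other than β-alanine library 1, that of DIAPH1 without β-alanine library 3 or any control, and that of CDC42EP5 without any library but β-alanine 1 and control 3. Genes on the opposite strand overlap CIT, PLK1, RHOA, DIAPH1, MYH10, MYL12A, CDK5, EXOC6, EXOC6B and EXOC8, so their counts are uncertain. By the DESeq2 Wald test ARHGEF18, RHOA and CDC42EP5 did not pass, and ARHGEF18 also did not pass in edgeR without the low-count filter. In bulk RNA, fewer cells in division and less RNA per cell cannot be told apart.

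**Figure D4:**
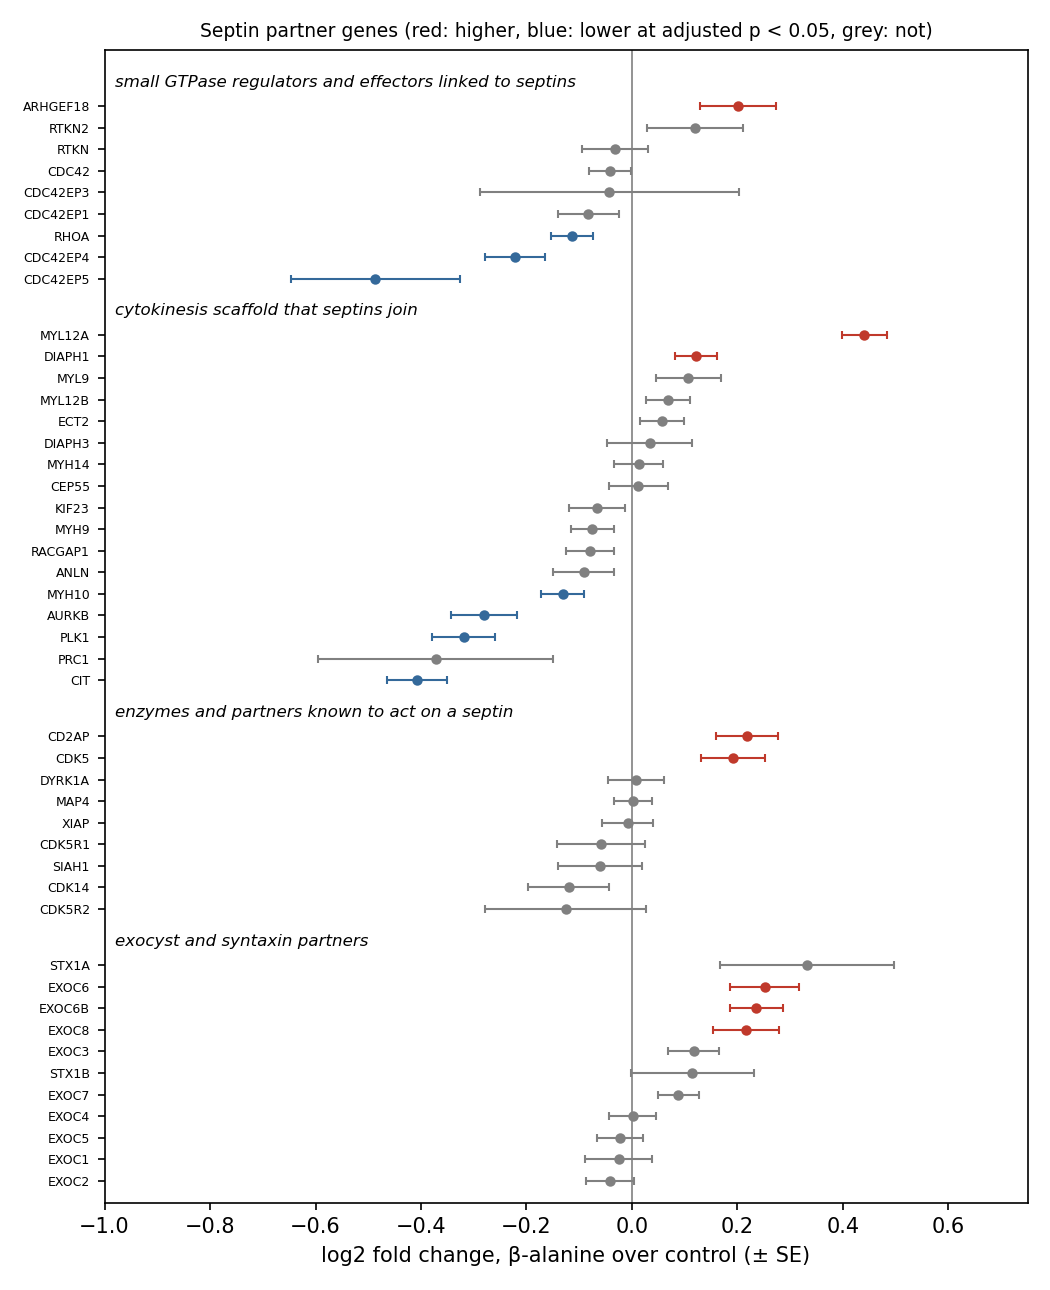
Fitted log2 fold change of β-alanine over control with its SE (horizontal axis) for genes of 4 septin partner lists, red where higher and blue where lower at an adjusted p under 0.05, grey otherwise. MYL12A at 0.44 and CDC42EP5 at -0.49 lie farthest from 0 among the genes drawn, and the 3 red exocyst genes lie between 0.22 and 0.25.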

How the data were processed

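Raw counts per gene symbol were deposited by the authors in one table of 36458 symbols for 6 libraries. The build GRCh38 and the programs featureCounts 2.0.1, STAR 2.7.3a, Trimmomatic 0.39, DESeq2 and bcl2fastq are listed per the submitters' processing notes, and neither annotation nor strand setting is given there, so overlapping genes and near-identical copies share uncertain counts. Per the labels' protocols, RNA with an integrity number above 7.0 was sequenced. Genes were filtered with filterByExpr (17331 kept, all 10 members among them), scaled by TMM, and tested by robust quasi-likelihood (edgeR 4.0.16, R 4.3.3), two-sided, with no covariate, Benjamini-Hochberg adjustment over all tested genes and a threshold of 0.05. The step was tested on simulated data. SE is of the log2 fold change, and CPM uses TMM-scaled totals. Transcript lengths and overlaps came from GENCODE release 29, and positions and promoters from RefSeq. Members, partner lists and alternatives were chosen with earlier results of these data known. The rule for naming took all 10 members, other symbols with SEPTIN and every called partner gene; other partner genes enter the counts only, and some genes counted in the lists are not reported here. Values of HDLBP, CCNI2, CDC42, ANLN, RACGAP1, KIF23, MYL12B, MAP4, STX1A and of the marker genes named were picked after they were seen. Alternatives were other scalings, no filter, DESeq2 1.42.0, limma-voom (limma 3.58.1), a replicate block, each library left out and, added after seeing the data, a GC correction. Figures used matplotlib 3.10.9.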

Additional observations from a re-analysis of the deposited data

How the results depend on the processing

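The 10 members' log2 fold changes moved by less than the spread between replicates under each scaling, filter, tool and left-out library, and SEPTIN2, at -0.01, turned to 0.01 with library totals or without β-alanine library 3. The number of members past the threshold on the lower side was 4 to 6 with one library left out, 4 with library totals, no low-count filter or the DESeq2 Wald test, and 5 with RLE factors or limma-voom; on the higher side it was 0 throughout. Since the members were chosen with this contrast known, these counts say nothing of how firm a member's difference is. Values of small or poorly measured members moved by over 1.5 times: SEPTIN5 to -0.15 without β-alanine library 3, SEPTIN4 to -0.16 without β-alanine library 2, and SEPTIN10 to between -0.02 and -0.08 with single libraries left out. Leaving out one library, calls over the whole table ranged from 1501 to 3204 higher and 1473 to 3294 lower, with the lowest counts without β-alanine library 2 or control library 2. Those in the partner lists ranged from 4 to 12 higher and 4 to 10 lower, with 4 in each direction without β-alanine library 2, β-alanine library 3, control library 1 or control library 2; DESeq2 called 5 partner genes lower, against 8 in edgeR. Subtracting the median of all genes of like GC content, chosen after seeing the data, gave -0.36 for SEPTIN9 and 0.02 for SEPTIN7. For SEPTIN7, at 0.05 without this correction, the shift exceeded the spread between replicates. The other 9 members moved by less than theirs. With the replicate block, 5 members were lower, 2564 genes were called higher and 2608 lower; same-numbered libraries deviated together with correlations of 0.0655, 0.00236 and 0.105, and not every library correlated best with its own number, so the numbers were not taken as pairs. Depth limits SEPTIN5 most, at 23 to 34 counts per library.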
